A study of Homo sapiens with 2 samples.

Results

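Integrins are receptors for the extracellular matrix and for other cells, each made of 1 alpha and 1 beta subunit. The subunits described here are the laminin-binding ones, ITGA3, ITGA6, ITGA7 and ITGB4, and those grouped here as leukocyte-type, ITGA4, ITGA9, ITGAE, ITGB7, ITGB2 and ITGAL, which is 10 genes of the 18244 named on the arrays. Their members were taken as every probe set whose only gene symbol in the platform's annotation was that of a member, which gave 31 probe sets, 15 for the laminin-binding genes and 16 for the others. The cells were MDA-MB-231, a human breast carcinoma line of mesenchymal character, grown in DMEM and harvested at the same time after passage in both groups. The control group was the parental line on 1 array, and the UGT8 knockdown group was a clone with stable knockdown of UGT8, the ceramide galactosyltransferase, also on 1 array. The sources used here name neither the reagent nor a vector control, and the knockdown and the choice of a clone cannot be told apart. With 1 array per group nothing was tested, and every difference below describes these 2 arrays and has no replicate check.

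Laminin-binding integrins hold cells to basement membranes. The alpha subunits encoded by ITGA3, ITGA6 and ITGA7 pair with the beta-1 subunit (ITGB1), and the ITGA6 subunit also pairs with that of ITGB4 in hemidesmosomes, the junctions that tie epithelial cells to laminin through keratin filaments. The ITGA4 and ITGA9 subunits bind VCAM1, osteopontin and matrix proteins, ITGAE with ITGB7 binds E-cadherin and retains T cells in epithelia, and ITGAL with ITGB2 forms LFA-1, the leukocyte receptor for ICAM proteins. A subunit without its partner is generally held inside the cell, so both partners matter for what reaches the surface, which was not measured here.

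Values are log2 RMA values, and each difference is the knockdown value minus the control value, so that -1 is a 2-fold lower reading on the knockdown array. Where a gene had several probe sets, the one of highest mean, called the brightest below, stood for it. The floor was the median, over all non-control probe sets, of the mean of both arrays (log2 6.64), since dim probe sets carry little signal over background. As a check of that floor, 17 of 20 genes typical of other tissues lay below it. UGT8 itself was lower in all of its probe sets, and the brightest read 8.95 in the control and 6.61 in the knockdown, which left 19.7% of the control signal. That knockdown reading lay just below the floor. The dimmer UGT8 probe sets, below the floor by mean, left 31.2% (7.47 and 5.78) and 20.7% (7.06 and 4.79). All 8 genes chosen as bright markers of the line, VIM and CD44 among them, lay past the floor on both arrays, whereas of 8 chosen as dim markers only the hormone receptor genes ESR1 and PGR lay below it. The median of the dim markers was 8.18 in the control and 8.09 in the knockdown, beside 12.59 and 12.36 for the bright ones. KRT19, chosen as dim, read 12.63 and 12.21. The 18 hybridisation control probe sets differed by a median of 0.51, higher in the knockdown, and the 24 poly-A control probe sets by 0.075 in the same direction. ACTB read higher at its 3' than at its 5' end by 0.49 in the control and 0.90 in the knockdown. For GAPDH these values were 0.18 in the control and 0.19 in the knockdown. Apart from centring on the control RNAs, what part these had in the values below was not tested.

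Of the 10 subunit genes, 6 lay past the floor, ITGA3, ITGA6, ITGA7, ITGB4, ITGAE and ITGB2. Of these, 4 were at least 1.5-fold lower on the knockdown array, ITGA7, ITGB2, ITGA3 and ITGB4, and 0 were at least 1.5-fold higher. Among all 10439 genes past the floor, 6.74% were at least 1.5-fold lower and 4.96% at least 1.5-fold higher. The median difference of the 6 was -0.81, beside 0.03 over all genes past the floor. With the scale centred on the hybridisation controls, 5 of the 6 were at least 1.5-fold lower, but so were 37.1% of all genes past the floor, whose median was then -0.48. In bulk RNA, fewer cells that express a gene and less of its RNA per cell cannot be told apart.

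**Figure D1:**
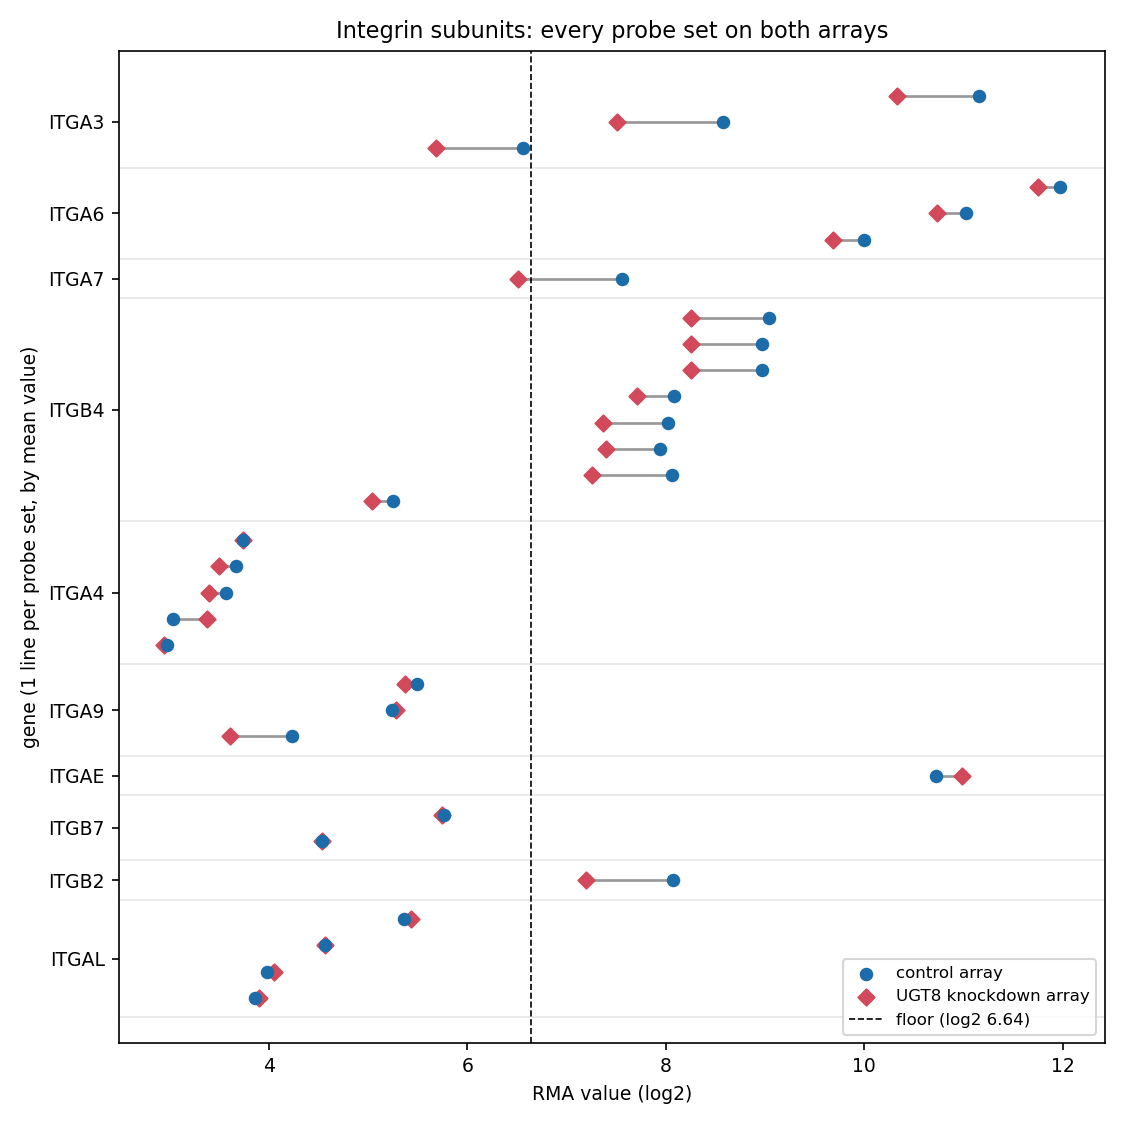
RMA values (log2, horizontal axis) of all 31 probe sets of the 10 subunit genes, 1 line per probe set, with the control array as circles, the UGT8 knockdown array as diamonds and the floor of 6.64 as a dashed line. The knockdown reading lies left of the control reading in all 15 probe sets of ITGA3, ITGA6, ITGA7 and ITGB4, and 14 of the 16 of the other genes lie below the floor.

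The laminin-binding subunits were lower in every probe set, by amounts that differed between genes. All 15 of their probe sets read lower on the knockdown array, with differences from -1.07 to -0.21. Of the 13 that lay past the floor all were below 0, beside 47.4% of all probe sets past the floor, and 8 were at least 1.5-fold lower, beside 7.07%. With a pair of ITGB4 probe sets of equal values counted once, these are 7 of 12. Probe sets of 1 gene share the same 2 RNA samples and are not replicates.

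ITGA3 encodes the alpha subunit of a receptor for laminin-332 and laminin-511. The brightest of its 3 probe sets gave 11.16 in the control and 10.33 in the knockdown, which is 1.78-fold lower (-0.83). The next read 8.57 and 7.51 (-1.07), and the dimmest, below the floor on both arrays, read 6.56 and 5.69 (-0.87). The 3 probe sets stood far apart in level, and all were lower, with a mean difference of -0.92 ± 0.13 (SD among its probe sets, no replicate error). That SD is above 0.083, the median SD over genes with several probe sets past the floor. A difference below that of ITGA3 was found in 2.75% of genes past the floor.

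ITGA6, the alpha subunit that pairs with either ITGB1 or ITGB4, differed least among the laminin-binding genes. Its brightest probe set, marked by its name for possible cross-hybridisation, read 11.97 in the control and 11.75 in the knockdown (-0.22, 1.16-fold). The other 2 read 11.03 and 10.73 (-0.29) and 9.999 and 9.68 (-0.31). The mean over the 3 was -0.28 ± 0.05 (SD among its probe sets), and 23.1% of genes past the floor had values below that of the brightest. None of the probe sets of ITGA6 overlapped those of ITGA3 or ITGA7 in difference, whereas all 3 lay within the range of the ITGB4 probe sets.

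ITGA7 encodes a laminin receptor subunit best known from skeletal and cardiac muscle, and of the 10 genes it had the largest difference in the brightest probe set. It was read by 1 probe set, which gave 7.55 in the control and 6.51 in the knockdown, 2.06-fold lower (-1.04). The knockdown reading lay below the floor, so that the gene passed through its control reading. It was the gene of the 10 whose mean lay nearest the floor, by 0.40. It was the only one of the 6 genes at least 2-fold lower in its brightest probe set, beside 1.54% of all genes past the floor, and that size rests on a knockdown reading below the floor. Of 10 muscle markers, DES and CHRNA1 lay past the floor, at differences of 0.25 and -0.77. The myogenic factor gene MYOD1 read 3.95 on both arrays, and the median of the 10 was 5.11 in the control and 4.98 in the knockdown.

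ITGB4 encodes the beta subunit with the long cytoplasmic domain that binds plectin in hemidesmosomes. The brightest of its 8 probe sets gave 9.04 in the control and 8.26 in the knockdown (-0.78, 1.72-fold), and 3.36% of genes past the floor lay below it. All 8 of its probe sets were lower, from -0.80 to -0.21, with a mean of -0.60 ± 0.21 (SD among its probe sets). A pair of them held the same values as each other, 8.97 in the control and 8.26 in the knockdown. Counted once, they leave 7 readings with a mean of -0.58 ± 0.22 (SD among its probe sets). The smallest differences were those of the probe set below the floor, 5.25 and 5.04 (-0.21), and of 1 marked for cross-hybridisation, 8.08 and 7.71 (-0.38). Of the 7 probe sets of ITGB4 past the floor, 5 were at least 1.5-fold lower, or 4 of 6 with that pair counted once, while the one below it differed about as little as ITGA6.

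**Figure D2:**
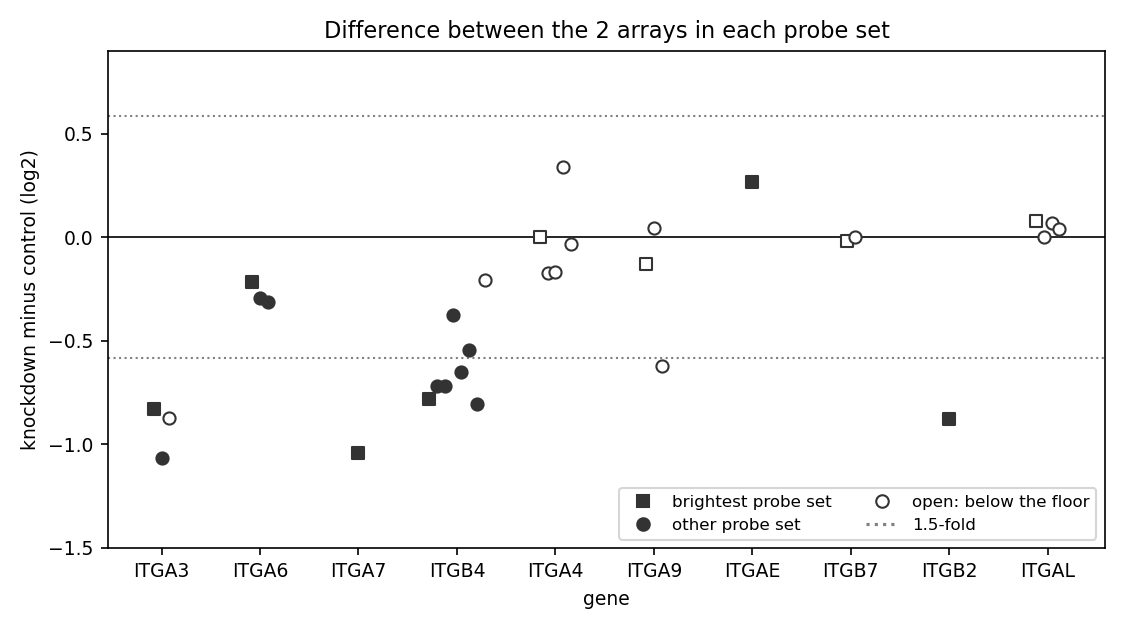
Difference between the knockdown and the control array (log2, vertical axis) in every probe set, by gene, with squares for the brightest probe set of a gene, open symbols for probe sets below the floor and dotted lines at 1.5-fold. ITGA3, ITGA7, ITGB4 and ITGB2 have their squares between -1.04 and -0.78, ITGA6 at -0.22 and ITGAE at 0.27.

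The leukocyte-type genes divided by level: ITGB2 and ITGAE lay past the floor, and the 4 others lay below it in every probe set. Of their 16 probe sets, 7 were lower, 6 were higher and 3 held exactly the same value on both arrays, beside 46%, 50.6% and 3.46% of all probe sets with 1 gene symbol. The median over the 2 genes past the floor was -0.30, and over all 6 genes it was -0.0096.

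ITGB2 encodes the beta-2 subunit shared by LFA-1 and the complement receptor integrins of leukocytes. It was read by 1 probe set, which gave 8.07 in the control and 7.19 in the knockdown, 1.84-fold lower (-0.88). Both readings lay past the floor, and 2.28% of genes past the floor differed further in that direction. Its alpha partner ITGAL lay below the floor in all 4 probe sets, with control values from 3.86 to 5.36 and knockdown values from 3.90 to 5.44. Of the other alpha subunits that pair with ITGB2, ITGAM and ITGAD also lay below the floor, and ITGAX read 7.76 and 7.62 (-0.14) in its brightest probe set, whose name marks possible cross-hybridisation, but lay below the floor in its other 3. No difference is therefore claimed for the alpha partners of ITGB2, of which only that single probe set of ITGAX lay past the floor.

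ITGAE, the alpha subunit of the E-cadherin receptor of tissue-resident T cells, was the only one of the 6 genes past the floor that was higher on the knockdown array. Its single probe set gave 10.72 in the control and 10.99 in the knockdown, 1.20-fold higher (0.27), a difference that turned to -0.24 when the scale was centred on the hybridisation controls. Lower differences than this were found in 77.5% of genes past the floor. Its beta partner ITGB7 lay below the floor in both probe sets, at 5.76 and 5.74 in the brighter and at 4.53 on both arrays in the dimmer. In RefSeq's annotation of GRCh38.p14 ITGAE overlaps P2RX5 and HASPIN, the latter a mitotic histone kinase. HASPIN read 6.12 and 6.47 (0.34), below the floor on both arrays, and P2RX5 read 8.88 and 8.79 (-0.09). Whether the ITGAE probe set reads either was not tested. Protein-coding genes also overlap ITGA7, ITGB4, ITGA4 and ITGB7 in that annotation, and whether their probe sets read these was not tested either. CDH1, which encodes E-cadherin, read 8.01 and 7.66 (-0.35).

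Sequence before the annotated start was at hand for 4 of the 10 genes, ITGA4, ITGA6, ITGAE and ITGB7. It is shown for ITGAE and ITGB7, partners of which only the first lay past the floor, and for ITGA6, the laminin-binding gene with the smallest difference. The 250 bases before the outermost start are from RefSeq (GRCh38.p14), at chr2:172427086-172427335 on the plus strand for ITGA6, chr17:3801189-3801438 on the minus strand for ITGAE and chr12:53207252-53207501 on the minus strand for ITGB7, each 5′ to 3′ in the gene's direction with CG dinucleotides in capitals.
ITGA6: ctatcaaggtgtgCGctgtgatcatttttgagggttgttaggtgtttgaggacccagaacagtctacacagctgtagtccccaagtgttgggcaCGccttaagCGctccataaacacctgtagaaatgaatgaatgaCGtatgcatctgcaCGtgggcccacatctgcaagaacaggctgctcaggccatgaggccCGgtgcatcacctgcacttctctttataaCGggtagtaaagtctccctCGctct
ITGAE: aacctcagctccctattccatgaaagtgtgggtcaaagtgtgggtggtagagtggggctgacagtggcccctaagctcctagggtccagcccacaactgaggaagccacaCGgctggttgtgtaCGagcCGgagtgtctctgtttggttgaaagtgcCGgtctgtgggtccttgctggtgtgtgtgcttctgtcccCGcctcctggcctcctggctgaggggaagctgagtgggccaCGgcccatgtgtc
ITGB7: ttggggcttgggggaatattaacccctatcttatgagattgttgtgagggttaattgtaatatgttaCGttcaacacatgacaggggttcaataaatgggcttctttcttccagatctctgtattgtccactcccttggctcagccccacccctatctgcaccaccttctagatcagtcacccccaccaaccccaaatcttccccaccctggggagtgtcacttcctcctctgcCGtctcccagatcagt
The ITGA6 window holds 8 CG dinucleotides, that of ITGAE 6 and that of ITGB7 2, where the median over 35116 such windows is 11. None of the 3 holds the GC box GGGCGG on either strand, which 42.6% of all windows do. The E-box CACCTG, searched on both strands, occurs 2 times before ITGA6 and not before the others, and 17.5% of all windows hold it. These counts describe letters in the windows shown and do not bear on the array values. ITGA6 has a second annotated start downstream, whose sequence is not shown.

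ITGA4 and ITGA9 are close relatives that bind VCAM1 and osteopontin. All 5 probe sets of ITGA4 read between 2.94 and 3.74 on either array, near the low end of the arrays, which began at 2.72 in the control and 2.67 in the knockdown. Its brightest probe set read 3.74 on both, and the 5 differences ran from -0.18 to 0.34. ITGA9 read 5.50 and 5.37 (-0.13) in its brightest probe set, 5.24 and 5.28 (0.04) in the next and 4.23 and 3.61 (-0.62) in the dimmest. The probe sets of ITGA9 therefore disagreed in direction, and the one difference beyond 1.5-fold came from the dimmest. Neither gene was measured above the floor on either array, so no difference is claimed for them here.

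Exactly equal readings on both arrays were found for 1 probe set each of ITGA4, ITGB7 and ITGAL. Equal values were most often dim over the whole array too, with a median level of 4.47 among the 1744 non-control probe sets that held them. The cause of equal values was not tested, and they are no measure of how closely the 2 samples agree.

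**Figure D3:**
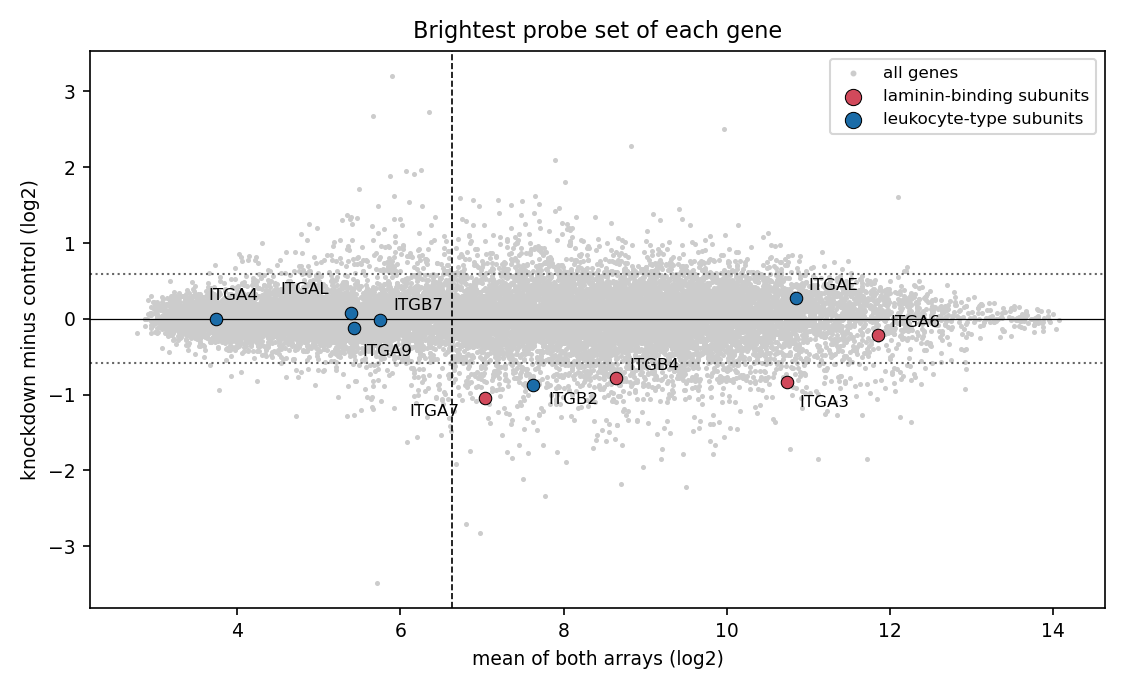
Difference between the arrays (log2, vertical axis) against the mean of both arrays (log2, horizontal axis) for the brightest probe set of each gene, with all genes in grey, the subunit genes in colour, the floor dashed and 1.5-fold dotted. ITGA7, ITGB2, ITGB4 and ITGA3 lie below the lower dotted line at means from 7.03 up, and ITGA4, ITGA9, ITGB7 and ITGAL lie left of the floor near 0.

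Set side by side as receptors, the subunits of 1 pair often differed by unlike amounts. ITGB1, the partner of 5 of the alpha subunits, read 13.46 and 13.48 (0.03), and its 4 probe sets past the floor lay between -0.07 and 0.03. With it, ITGA7 differed by -1.04, ITGA3 by -0.83 and ITGA6 by -0.22, so that in the first 2 the lower reading lay with the alpha subunit. In the hemidesmosome receptor the lower reading lay with the beta subunit, ITGB4 at -0.78 against ITGA6 at -0.22. For ITGA4, ITGA9, ITGAE and ITGAL, 1 partner or both lay below the floor. Whether these differences between subunits exceed the error of single arrays could not be tested.

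Markers of leukocytes were read because 6 of the genes are grouped here as leukocyte-type. Of 20 markers, 19 had a probe set of their own and 4 lay past the floor. These were LAPTM5, CD14, CD8A and TYROBP, with differences of -0.34, -0.73, 1.02 and -0.12 in their brightest probe sets. CD8A read 6.80, near the floor, in the control and 7.82 in the knockdown, and its 2 probe sets averaged 0.63. LAPTM5, a lysosomal membrane protein gene of blood cells, read 11.94 and 11.61. The pan-leukocyte phosphatase gene PTPRC read 3.56 and 3.40, and the T-cell receptor gene CD3E read 5.67 and 5.64, both below the floor on both arrays. The linear signal summed over the 19 was 5088 in the control and 4312 in the knockdown, most of it from LAPTM5, and over the other 18 it was 1147 and 1193. What part leukocyte genes had in the readings of ITGB2 and ITGAE was not tested.

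Genes of the same system gave mixed readings. The ligands of the laminin-binding subunits are the laminin chains, of which 10 of 12 had a probe set of their own and 7 lay past the floor, with a median of -0.57. Of these, 2 were at least 1.5-fold lower, LAMA5, the alpha chain of laminin-511, at 9.01 and 7.97 (-1.03) in the brightest probe set, and LAMB2 at 9.30 and 8.67 (-0.63), and 0 were higher by that much. The second probe set of LAMA5, below the floor, read 4.30 and 4.46 (0.16), and its 2 probe sets averaged -0.43. The laminin median of -0.57 is the value of LAMA4 in its brightest probe set, whereas the 4 probe sets of LAMA4 averaged -0.098. Past the floor, LAMB3 at 9.83 and 10.25 (0.42) and LAMB4 at 6.83 and 6.97 (0.14) were higher in their brightest probe sets. With the 3 chains below the floor, all of them higher, the laminin median was -0.20. Of those 3, LAMA1 read 6.11 and 6.96 (0.85). Tetraspanins and hemidesmosome genes had a median of -0.20 over 12 past the floor, with 2 lower by 1.5-fold or more and 0 higher. These were ERBIN, a scaffold protein that binds the ITGB4 tail, at 11.31 and 10.31, just short of 2-fold lower, and TSPAN8 at 7.64 and 6.78 (-0.86). The other partners differed less: CD151, the tetraspanin that associates with the ITGA3 and ITGA6 subunits, by -0.03, and PLEC, the plectin gene, by 0.02.

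Ligands of the leukocyte-type subunits had a median of -0.35 over 9 genes past the floor, of which 2 were at least 1.5-fold lower and 1 higher. VCAM1, the ligand of ITGA4 and ITGA9, read 9.79 and 7.62 (-2.18), and the osteopontin gene SPP1 read 10.39 and 8.95 (-1.44). ICAM2, a ligand of LFA-1, was higher, at 8.35 and 9.33 (0.98), while ICAM1 differed by -0.48. Among 20 genes past the floor that switch integrins on or off, the median was 0.06, 1 was at least 1.5-fold lower and 1 higher. CYTIP, which binds the regulator cytohesin-1 in leukocytes, read 9.95 and 7.99 (-1.96), and the kindlin gene FERMT1 read 6.60, below the floor, and 8.11 (1.51). Over its 5 probe sets FERMT1 averaged 0.79. Of the 16 other integrin subunits, 10 lay past the floor on mean value. In their brightest probe sets 7 of these were at least 1.5-fold lower, led by ITGA10, ITGB8 and ITGA1, whose knockdown readings lay below the floor. ITGA10 differed by -2.83 in its brightest probe set but averaged -1.52 over its 3. For ITGB8 these values were -2.11 and -0.89 over its 4, and ITGA1 had 1 probe set (-1.76). The median of the other subunits was -1.10 over the 10, -0.79 over the 7 above the floor on both arrays and -0.15 over all 16. That of the laminin-binding subunits was -0.81 over all 4 and -0.78 over the 3 above the floor on both arrays, so that the order of these lists turns with the genes kept.

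**Figure D4:**
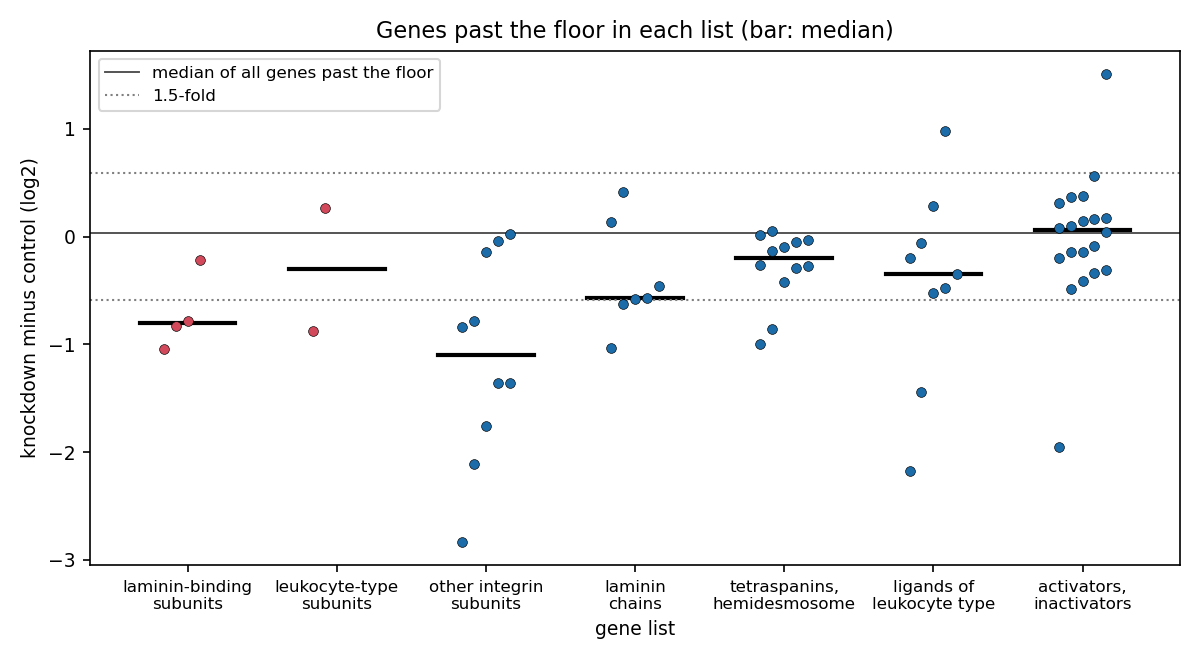
Difference between the arrays (log2, vertical axis) of each gene past the floor, by list, with a bar at the median of the list, a line at the median of all genes past the floor and dotted lines at 1.5-fold. All 4 laminin-binding subunits lie below 0, and the genes that switch integrins on or off have a median of 0.06. The median of -1.10 for the other integrin subunits includes 3 genes whose knockdown readings lie below the floor and is -0.15 over all 16.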

How the data were processed

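Total RNA from 1 control and 1 UGT8 knockdown culture was extracted with Trizol and hybridised as biotin-labelled cRNA to 1 Affymetrix array each, per the labels' protocols. The deposited values are on a log2 scale and were made by the authors with RMA, per the submitters' processing notes; RMA corrects background, normalizes between arrays and summarises probe sets, so a shift common to most transcripts is removed. The sources used here do not give the software version or build. Ranked by value, the arrays differ by at most 0.0727. Having 1 array a group limits the precision.

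The table holds 49495 probe sets. The platform annotation gives 1 gene symbol to 45278, several to 1333 and none to 2782, and 102 are controls. Symbols were updated through Entrez IDs to RefSeq's table for GRCh38.p14, which held 99.8% of them. Differences, counts at 1.5-fold and medians were computed in Python 3.11.15 with pandas 2.3.3, and the procedure was tested on simulated differences. No test was run, as each group holds 1 array. Named were all members, UGT8, ITGB1 and, of each other list, up to 3 genes past the floor with the largest differences of at least 1.5-fold. LAMA1, LAMA4, LAMB3, LAMB4, CD151, PLEC, CDH1, ICAM1, overlapping genes, ITGB2's partners and marker genes were added after values were seen. Members and lists were chosen with earlier results of these data known. Alternatives changed the floor, the probe-set summary, the centring (median, loess with a fraction of 0.3, control RNAs) and the fold threshold.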

Additional observations from a re-analysis of the deposited data

How the results depend on the processing

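The median of the laminin-binding subunits lay between -0.88 and -0.76 under each alternative but centring on the hybridisation controls, which gave -1.32. That of the leukocyte-type subunits was -0.0096 with no floor, -0.019 with the floor at the 25th percentile, 0.27 with it at the 75th percentile, where only ITGAE is left, and -0.82 when centred on the hybridisation controls. The count of members at least 1.5-fold lower was 4, and became 2 once a floor at the 75th percentile had removed ITGA7 and ITGB2, 5 when centred on the hybridisation controls and 1 at a threshold of 2-fold; no member was at least 1.5-fold higher under any alternative run. Of 63 recomputed values of single members, 53 moved by less than 0.083, the median SD between probe sets of a gene, 10 moved by more and 0 of the values past 1.5-fold changed sign. Many of the 53 could not move, so this count is no measure of how firm the values are. A change of floor leaves the brightest probe set of a kept gene as it was. Genes with 1 probe set do not change with the summary, and centring on the median or on control RNAs shifts every gene alike. Averaging all probe sets moved ITGA3 to -0.92 and ITGB4 to -0.60. Genes below the floor carry little signal over background, so no difference is claimed for members below it. The floor is a median level and was not tested as a limit of detection. The dimmer UGT8 probe sets, below it by mean, still differed by -1.68 and -2.27. A floor that both arrays had to reach, added after the data were seen, removed ITGA7 and left 3 members at least 1.5-fold lower. No paired analysis was possible because each group holds 1 array and the labels carry no replicate numbers.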
